A study of Mus musculus with 24 samples.

Results

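The genes described here are the 9 genes of de novo lipogenesis Srebf1, Mlxipl, Slc25a1, Acly, Acaca, Acacb, Fasn, Me1 and Thrsp, out of 26995 gene symbols in the count tables. They were chosen by name for their place in the pathway, and each symbol is represented by the best covered of its 3′UTR entries (largest mean of total reads in the 24 libraries), out of 91830 entries. The cells were 3T3-L1, an established mouse pre-adipocyte line that turns into fat cells when given dexamethasone, IBMX and insulin. By the paper's methods, this mixture was replaced at day 3 by medium with insulin alone. Calf serum was used before induction and fetal bovine serum after it. Comparisons of days thus also compare media. Cultures treated with the solvent DMSO or with 0.5 µM ML-792, an inhibitor of the SUMO-activating enzyme SAE1/SAE2, were harvested at day −2 (before induction) and at days 1, 3 and 7, with 3 biological replicates (A, B and C) for each of the 8 conditions. All cultures, DMSO included, received 100 µM 4-thiouridine for 45 min before harvest. Each library gave total reads (QuantSeq) and labeled reads with at least 1 T-to-C conversion (SLAMseq). Labeled reads are taken here as a measure of RNA made during the pulse, and some may carry a conversion from another source. The study's layout draws ML-792 as present from day −2 on, how long before the harvest of day −2 it was added is not given in the sources used here, and all results come from 1 cell line.

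De novo lipogenesis builds fatty acids from the carbon of glucose. Mitochondrial citrate is carried to the cytosol by Slc25a1 and split by Acly into acetyl-CoA and oxaloacetate. The carboxylases Acaca and Acacb turn acetyl-CoA into malonyl-CoA, from which Fasn assembles palmitate with NADPH, part of which malic enzyme Me1 supplies. The transcription factors SREBP1 (encoded by Srebf1) and ChREBP (encoded by Mlxipl) drive these genes in response to insulin and to glucose, and Thrsp (Spot 14) is a small acidic protein known from lipogenic tissues. In adipose tissue this route fills the lipid droplet together with fatty acids taken up from outside.

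Libraries held 13554718 to 27013352 total reads and 115709 to 820046 labeled reads. The labeled share of a library was 2.68 to 3.68% at day −2 and 0.802 to 1.36% at the later days. Replicates of 1 condition correlated at r = 0.956 to 0.983 across entries, and no 2 libraries were identical. The 7 adipocyte markers (Adipoq, Fabp4, Pparg, Plin1, Cidec, Lpl and Cebpa) summed to 22256 to 23860 normalized counts in the DMSO libraries of day −2 and to 628090 to 703367 at day 7, and 5 pre-adipocyte markers (Dlk1, Pdgfra, Ly6a, Thy1 and Cd34) went from 42920 to 75200 down to 4248 to 4739. Markers of leukocytes, endothelium, muscle and epithelium (Ptprc, Adgre1, Pecam1, Myog and Krt8) summed to at most 25.0 in any library, and Ptprc was at 0 in all 24. In bulk libraries of a culture that differentiates, more fat cells and more RNA per fat cell cannot be told apart.

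Each entry is the 3′UTR of a RefSeq transcript on mm10 in the deposited tables, where QuantSeq reads fall. Srebf1 was counted at chr11:60199084-60199921 on the minus strand, where an entry of Rai1 lies on the opposite strand, and whether the counting used strand is not given in the sources used here. Mlxipl was counted at chr5:135137361-135138382, Acaca at chr11:84399684-84401651 and Acacb at chr5:114249621-114250761, all on the plus strand. Slc25a1 at chr16:17925211-17925812, Acly at chr11:100476352-100477243, Fasn at chr11:120805958-120807853, Me1 at chr9:86581363-86582736 and Thrsp at chr7:97412933-97413515 lie on the minus strand. Srebf1, Me1 and Acacb each have a second overlapping entry with equal counts, which shares their reads, and Mlxipl has a second overlapping entry with fewer reads. All 9 genes passed the filter on low counts in total reads and 7 passed it in labeled reads. Mlxipl and Acacb did not, with at most 1 and 11 labeled reads in any library.

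The start-site regions of 3 members are shown because their total reads were lower with ML-792 at day 3, as described further on. Each line gives the 250 bases before the annotated start (RefSeq, GRCm38.p6, the patch release of mm10) on the gene's own strand: Slc25a1 at chr16:17928220-17928469, Fasn at chr11:120824548-120824797 and Thrsp at chr7:97417551-97417800, all on the minus strand. Capitals mark matches on either strand to 4 motifs: TCACNCCAC for the sterol regulatory element that SREBPs bind, the palindrome CACGTG for the E-box, CCAAT for NF-Y and GGGCGG for Sp1.
Slc25a1: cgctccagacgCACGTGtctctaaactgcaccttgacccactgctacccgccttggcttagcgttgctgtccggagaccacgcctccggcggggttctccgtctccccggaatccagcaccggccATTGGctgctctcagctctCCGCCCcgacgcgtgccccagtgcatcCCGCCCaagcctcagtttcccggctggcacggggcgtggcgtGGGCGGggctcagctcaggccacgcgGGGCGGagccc
Fasn: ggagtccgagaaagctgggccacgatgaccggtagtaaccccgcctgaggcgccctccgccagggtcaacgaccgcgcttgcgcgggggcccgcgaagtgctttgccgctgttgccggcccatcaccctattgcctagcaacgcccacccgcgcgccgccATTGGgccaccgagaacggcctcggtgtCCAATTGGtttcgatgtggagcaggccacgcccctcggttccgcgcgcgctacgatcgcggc
Thrsp: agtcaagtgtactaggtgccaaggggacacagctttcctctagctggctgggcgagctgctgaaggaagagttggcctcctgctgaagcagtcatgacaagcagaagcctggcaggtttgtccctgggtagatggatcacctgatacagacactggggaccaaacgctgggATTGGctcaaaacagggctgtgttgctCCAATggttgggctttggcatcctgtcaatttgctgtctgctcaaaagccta
Windows from 250 bases before to 50 bases after the start were searched in 32851 RefSeq promoters, 13 of them from the 9 members. CCAAT was in a promoter of 8 members, all but Acaca, and in one of 41.1% of the 27025 genes with a promoter in the table. It stood in all 3 regions shown, on 1 strand or the other, and in Fasn the rightmost match and its reverse complement ATTGG overlap in CCAATTGG. GGGCGG was found for Srebf1, Mlxipl, Slc25a1, Acly and Me1 (38.2% of genes), CACGTG for Mlxipl and Slc25a1 (8.09%) and TCACNCCAC for Mlxipl (1.44%). These are letter matches in a short window and do not show binding. Acaca had 1 region in this set, and start sites outside the set were not searched.

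In DMSO the 9 genes together made up 0.0637 to 0.0903% of the reads of a day −2 library, counted on 1 entry per gene, and 0.454 to 0.661% of a day 7 library. Counts below are normalized total counts, scaled to the mean effective library size. Fasn and Thrsp carried 34.7 to 39.1% of the summed counts of the 9 genes at day −2 and 70.2 to 74.9% at day 7, and the other 7 genes together went from 4847 to 6746 up to 17535 to 23328. A gene is said to have risen, fallen or been called where edgeR's quasi-likelihood test gave an adjusted p (Benjamini-Hochberg over all tested entries) under 0.01 between days or under 0.1 between treatments. Between day −2 and day 1, 2 of the 9 were called, 1 up and 1 down, against 13.7% of the 26563 entries tested. By day 3, 6 had risen and none had fallen (30.8% of entries were called in either direction), and by day 7 it was 8, all up (32.7%). The median log2 fold change of the 9 to day 7 was 1.76, against −0.04 over all entries.

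**Figure D1:**
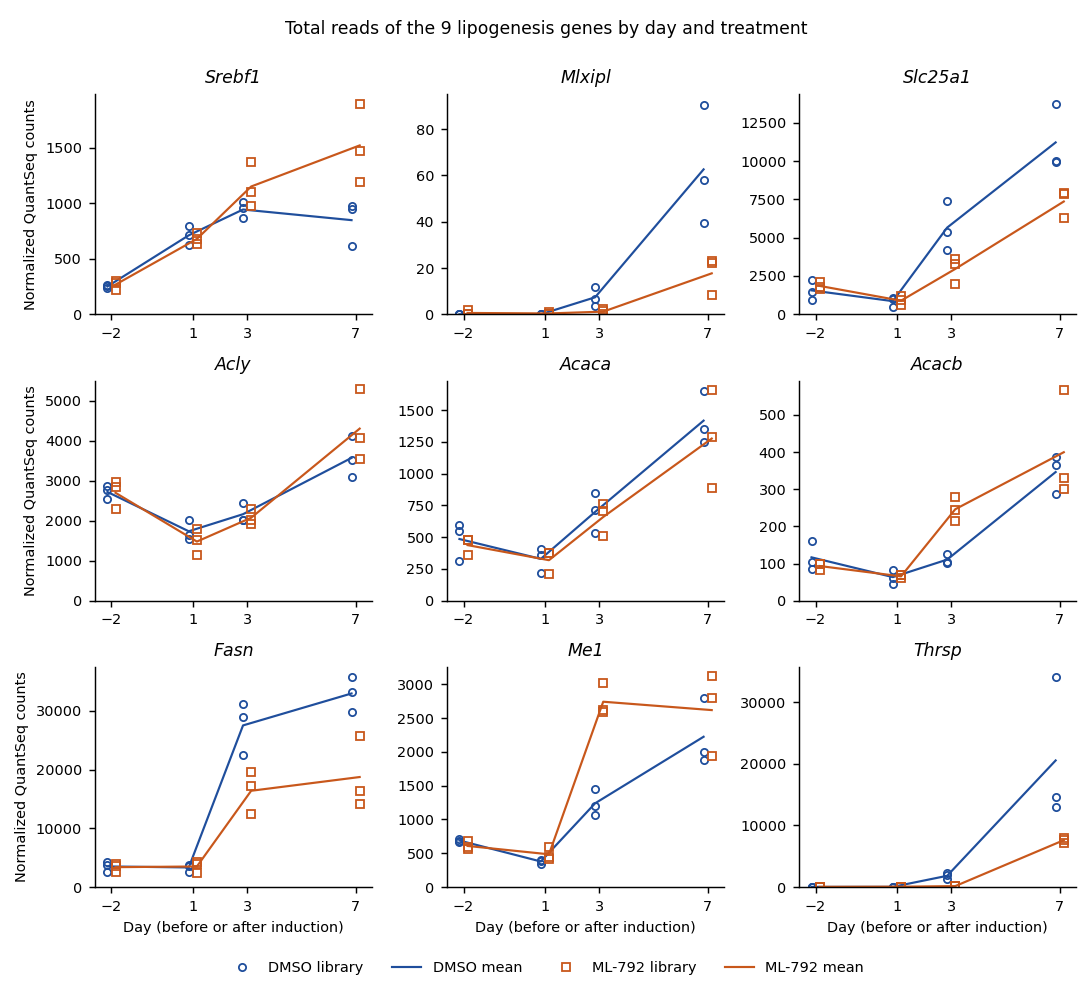
Normalized total counts (vertical axes, linear from 0, a scale of its own for each gene) of the 9 lipogenesis genes by day (horizontal axis, to scale). Circles and squares are single libraries of DMSO and ML-792 and lines join the means of 3. On these linear axes Fasn climbed mostly between days 1 and 3, and Thrsp and Mlxipl mostly between days 3 and 7. On the log2 scale, Thrsp in DMSO rose more from day 1 to day 3 (5.97) than from day 3 to day 7 (3.50). Acly was lowest at day 1 and highest at day 7 in both treatments.

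Srebf1 was the 1 gene that had risen by day 1. It gave 256, 259 and 237 normalized counts in replicates A, B and C at day −2 and 712, 797 and 621 at day 1. All libraries of day 1 lay above those of day −2, and the log2 fold change was 1.50 ± 0.19 (SE, adjusted p = 4.1e-05). The counts were 863, 1009 and 954 at day 3 and 973, 618 and 949 at day 7. These 2 days overlapped with each other, and both lay above day −2, by 1.91 ± 0.20 (adjusted p = 1.2e-06) and 1.76 ± 0.19 (adjusted p = 2.4e-06) on the log2 scale.

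Mlxipl had 0 reads in all 6 DMSO libraries of days −2 and 1. At day 3 it had 6, 10 and 3 reads (6.62, 11.8 and 3.65 normalized counts) and at day 7 it had 35, 87 and 51 reads (39.3, 90.6 and 58.0). The groups of days 3 and 7 did not overlap. Against a floor of 3 reads in each library of day −2, Mlxipl was at least 2.88-fold higher at day 3 (edgeR adjusted p = 0.0023) and at least 24.5-fold higher at day 7 (adjusted p = 3.3e-05). These bounds were 2.05-fold and 19.4-fold without replicate B. From day 3 to day 7 Mlxipl rose by 3.07 ± 0.65 on the log2 scale (adjusted p = 0.0078). The calls of Mlxipl at day 3, against day −2 and against day 1, and at day 7 against day 3 were lost when any 1 of the 3 replicates was left out (adjusted p = 0.0135 to 0.0741), while that at day 7 against day −2 was kept.

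Among the genes that handle citrate, Slc25a1 rose at days 3 and 7 and Acly rose from day 3 to day 7. Slc25a1 gave 1473, 942 and 2264 normalized counts at day −2, 998, 508 and 1067 at day 1, 5339, 4214 and 7420.1 at day 3 and 9919.6, 13700.2 and 10036 at day 7. Days −2 and 1 overlapped, whereas every library of day 3 lay above both and every library of day 7 above day 3. Its log2 fold change from day −2 was 1.86 ± 0.33 at day 3 (adjusted p = 0.00028) and reached 2.85 ± 0.34 by day 7 (adjusted p = 5.7e-06).

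Acly, which makes the cytosolic acetyl-CoA, gave 2765, 2531 and 2855 normalized counts at day −2 and 1635, 1547 and 2019.7 at day 1. All libraries of day 1 were below those of day −2, with a log2 fold change of −0.65 ± 0.17 that did not pass the test (adjusted p = 0.011). At day 7 it gave 3089.6, 4106 and 3508, above all libraries of day −2 and of day 3 (2017, 2022 and 2444). The difference from day −2, 0.39 ± 0.17, did not pass (adjusted p = 0.072), and that from day 3, 0.72 ± 0.17, did (adjusted p = 0.008). The call against day 3 was kept in 4 of 9 alternatives and lost without a filter on low counts (0.012), with at least 10 reads summed as the filter (0.010) and without replicate A (0.14), B (0.015) or C (0.051).

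Both acetyl-CoA carboxylases were higher at day 7 than at day −2. Acaca, the form that serves fatty acid synthesis, gave 594, 315 and 548 normalized counts at day −2, 359, 218 and 409 at day 1, 716, 530.5 and 849 at day 3 and 1353, 1647 and 1251 at day 7. Days −2 and 3 overlapped and day 7 lay above both, with a log2 fold change from day −2 of 1.55 ± 0.27 (adjusted p = 0.00025). Acacb, the mitochondria-bound form whose malonyl-CoA restrains fatty acid oxidation, gave 104, 85.5 and 160.2 at day −2, 60.9, 45.9 and 83.3 at day 1, 101, 104 and 126 at day 3 and 287, 366 and 386 at day 7. It too overlapped between days −2 and 3 and was apart at day 7, by 1.57 ± 0.28 (adjusted p = 0.0003, and 0.0138 without replicate A). Against day 3, Acacb was higher at day 7 by 1.65 ± 0.29 (adjusted p = 0.00092).

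Fasn, the synthase itself, gave 3757, 2536 and 4225 normalized counts at day −2 and 3629.5, 2609 and 3767 at day 1, and these groups overlapped. At day 3 it gave 28927, 22484 and 31165 and at day 7 it gave 33229.5, 35798 and 29876. Days 3 and 7 overlapped and both lay far above the earlier days. The log2 fold change from day −2 was 2.97 ± 0.23 at day 3 (adjusted p = 6.1e-08) and reached 3.23 ± 0.23 by day 7 (adjusted p = 2.2e-08), and the step from day 3 to day 7 was 0.26 ± 0.21 (adjusted p = 0.47, 95% interval −0.16 to 0.68).

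Me1, which yields NADPH while turning malate into pyruvate, dipped before it rose. It gave 666, 715 and 682 normalized counts at day −2 and 385, 402 and 347 at day 1, a log2 fold change of −0.86 ± 0.19 with no overlap (adjusted p = 0.003). At day 3 it gave 1203, 1455 and 1059 and at day 7 it gave 1874, 2800.0 and 1999.6. Each of these days lay above the one before, with changes from day −2 of 0.85 ± 0.18 (adjusted p = 0.0015) and 1.69 ± 0.19 (adjusted p = 2.3e-06).

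Thrsp had the steepest course of the 8 genes with reads at day −2. It gave 9.61, 38.8 and 12.2 normalized counts at day −2 and 18.7, 20.7 and 46.3 at day 1, and the groups overlapped. It then gave 1356, 2208 and 1887 at day 3 and 14632, 33974 and 12966 at day 7. Each of the later days was above all earlier ones, and within day 7 replicate B stood far above the other two. Its log2 fold change from day −2 was 6.50 ± 0.56 at day 3 (adjusted p = 2.4e-07) and reached 9.99 ± 0.63 by day 7 (adjusted p = 7.3e-09).

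Step by step, 6 genes rose from day 1 to day 3 (18.9% of all entries were called). They were Fasn (3.04 ± 0.23), Thrsp (5.97 ± 0.54), Slc25a1 (2.72 ± 0.34), Me1 (1.71 ± 0.19), Acaca (1.09 ± 0.27) and Mlxipl (at least 2.74-fold, or 1.92-fold without replicate B). From day 3 to day 7, 5 rose (8.66% of entries), namely Mlxipl, Acly, Acacb, Me1 (0.84 ± 0.18) and Thrsp (3.50 ± 0.46). None fell in either step. The same replicate letters deviated together in 7 of 10 comparisons of total reads, among them day 1 with day −2 and day 7 with day 3. The reported fits hold no replicate term. With the letter as a block, 4 genes were called at day 1, the fall of Acly (−0.65, adjusted p = 0.0013) and of Acacb (−0.87, adjusted p = 0.0081) being added, and Acaca was added at day 7 against day 3 (1.08, adjusted p = 0.0018). Single replicates bore on these counts. Leaving out replicate A left 0 calls at day 1 against day −2 (3 members at an unadjusted p under 0.05), leaving out B gave 4 and leaving out C gave 1. Without A, 3 of the 6 rises to day 3 from day −2 were kept (Srebf1, Fasn and Thrsp). For the step from day 1 to day 3, the call of Acaca was lost without A or C (adjusted p = 0.082 and 0.051). Without A or without C only the rise of Thrsp was kept from day 3 to day 7.

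The effect of ML-792 was tested day by day against the DMSO libraries. At day −2 none of the 9 genes was called, nor was any other entry (0%, with 346 of 26563 entries at an unadjusted p under 0.05). Replicate letters deviated together in this comparison, and the fits hold no replicate term. The lack of calls thus does not show an absence of effect. At day 1 none was called either, against 6.45% of all entries. At both days 0 members had an unadjusted p under 0.05, and DESeq2 called 0. The DMSO and ML-792 libraries overlapped for all 9 genes at day −2 and for all but Me1 at day 1. Full separation of 3 libraries from 3 can arise without any effect, and the share of entries showing it is not given here. Me1 gave 415, 589 and 448 normalized counts with ML-792 at day 1, above its 385, 402 and 347 in DMSO, with a log2 difference of 0.36 ± 0.19 (adjusted p = 0.39). For Fasn the 95% interval of the log2 difference ran from −0.55 to 0.44 at day −2 and from −0.43 to 0.56 at day 1. Intervals for Thrsp were wider, −0.81 to 1.51 and −0.28 to 1.90, at 9 to 58 reads in a library.

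At day 3 the pathway was split. ML-792 changed 5 of the 9 genes (13% of entries were called), with Fasn, Slc25a1 and Thrsp lower and Me1 and Acacb higher than in DMSO. Fasn gave 19523, 12520.0 and 17136 normalized counts with ML-792, all below the lowest DMSO library of that day, a log2 difference of −0.75 ± 0.25 (adjusted p = 0.066). Slc25a1 gave 3283, 2009 and 3591, also below all DMSO libraries, a difference of −0.93 ± 0.31 (adjusted p = 0.062). Thrsp gave 136, 159 and 151 against 1356 to 2208 in DMSO, a difference of −3.61 ± 0.50 (adjusted p = 3.7e-05). Thrsp with ML-792 at day 3 was thus still above its own level of day −2 (35.4, 6.18 and 35.8) and day 1 (63.7, 63.2 and 26.3), but by less than in DMSO.

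The genes that were higher at day 3 were Me1 and Acacb. Me1 gave 2586, 3026 and 2617 normalized counts with ML-792 against 1059 to 1455 in DMSO, a log2 difference of 1.15 ± 0.19 (adjusted p = 0.00012). The 3 libraries were above every DMSO library of day 3. Their mean of 2743 was above the DMSO mean of day 7, 2224. They overlapped with the DMSO libraries of day 7 (1874 to 2800.0), and this difference was not tested. Acacb gave 245, 214 and 279 against 101 to 126, with no overlap and a difference of 1.16 ± 0.26 (adjusted p = 0.0045). Mlxipl, at 2, 1 and 0 reads with ML-792, lay below its 6, 10 and 3 reads in DMSO and did not pass (−2.52 ± 1.02, adjusted p = 0.15). Srebf1 (0.29 ± 0.19), Acly (−0.06 ± 0.18) and Acaca (−0.08 ± 0.28) overlapped between treatments. Without replicate A, Me1 and Thrsp were the 2 calls kept at day 3, and without C there were 3, Acacb being the other. Fasn had an adjusted p of 0.25 and 0.41 and Slc25a1 of 0.34 and 0.25 in these fits, and with at least 10 reads summed as the filter Slc25a1 had 0.10 and was not called.

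**Figure D2:**
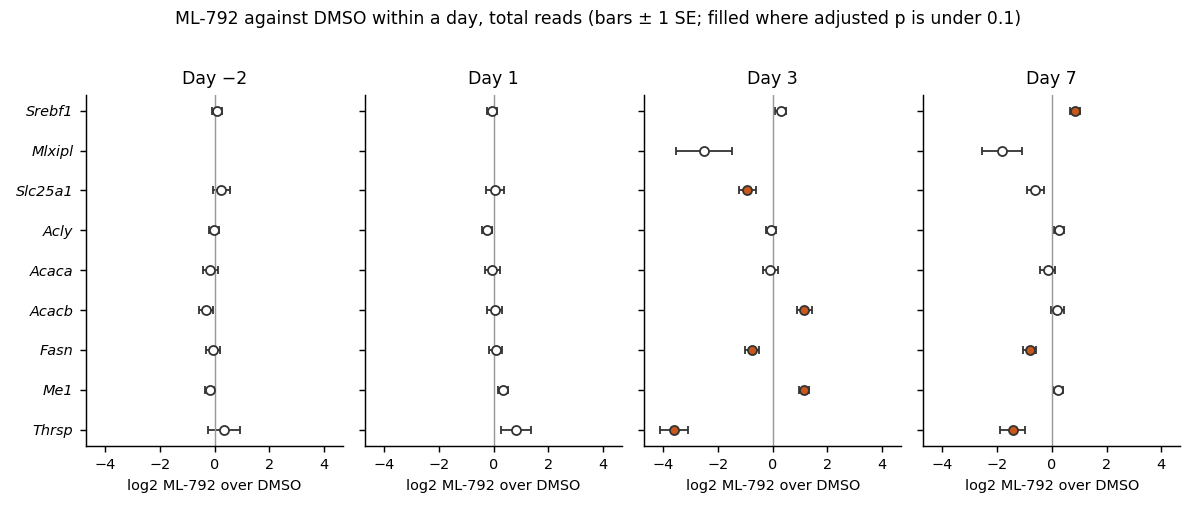
Log2 ratio of total counts in ML-792 over DMSO (horizontal axes) for each gene at each day, from edgeR, with bars of 1 SE and filled points where the adjusted p was under 0.1. No point is filled before day 3, and Thrsp at day 1 lies right of 0, at 0.81 ± 0.56. At day 3 the filled points of Thrsp, Slc25a1 and Fasn are left of 0 and those of Me1 and Acacb right of 0. Srebf1 is right of 0 at day 7. Mlxipl is left out at days −2 and 1, where no library had more than 2 reads.

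At day 7 ML-792 changed 3 of the 9 genes (9.74% of entries). Srebf1 gave 1895, 1194 and 1468 normalized counts with ML-792 against 973, 618 and 949 in DMSO, without overlap and with a log2 difference of 0.84 ± 0.19 (adjusted p = 0.0053). Fasn, a target of SREBP1, was lower, at 25682, 14188 and 16333 against 29876 to 35798, by −0.82 ± 0.25 (adjusted p = 0.053). Thrsp was lower too, at 7681, 7977 and 7133 against 12966 to 33974, by −1.43 ± 0.45 (adjusted p = 0.061). All ML-792 libraries of these 3 genes lay on 1 side of all DMSO libraries. The genes were picked by a test on the same libraries, so this is no separate support. Slc25a1 and Mlxipl, which were not called, were apart in the same way.

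The remaining genes did not pass at day 7. Slc25a1 gave 7947, 6297 and 7842 normalized counts, below the DMSO range of 9919.6 to 13700.2 (−0.61 ± 0.31, adjusted p = 0.31), and Mlxipl gave 22.1, 22.8 and 8.15, below 39.3 to 90.6 (−1.81 ± 0.72, adjusted p = 0.17). Mlxipl was called with DESeq2 (adjusted p = 0.073), with 1 entry per gene (0.093), with the replicate letter as a block (0.071) and with only the 6 libraries of the day (0.044). Me1 gave 3118, 2799 and 1940.2 and Acacb 566, 331 and 301, and both overlapped with DMSO. Their log2 differences, 0.24 ± 0.18 for Me1 and 0.21 ± 0.25 for Acacb, had 95% intervals of −0.12 to 0.59 and −0.29 to 0.70. Acly (0.27 ± 0.18) and Acaca (−0.15 ± 0.28) overlapped as well. All 3 calls of day 7 were lost without replicate A (4 members kept an unadjusted p under 0.05), and those of Fasn and Thrsp were also lost without C. Thrsp was not called with at least 10 reads summed as the filter (adjusted p = 0.13). The summed adipocyte markers were higher with ML-792 at day 7, 859648 to 881527 against 628090 to 703367 in DMSO, with 2 of 7 called higher (Adipoq and Fabp4, both by 0.80 on the log2 scale). The pre-adipocyte markers summed to 3089 to 4069 with ML-792 against 4248 to 4739, with Pdgfra (1.09) and Ly6a (1.02) called higher and Dlk1 (−1.05) lower. At day 3 the summed adipocyte markers overlapped, 411379 to 471035 against 374505 to 511501, and 2 of 7 were called lower with ML-792, Adipoq (−0.89 ± 0.23, adjusted p = 0.011) and Lpl (−0.44 ± 0.13, adjusted p = 0.041). The pre-adipocyte markers summed to 9731 to 11002 with ML-792 at day 3 against 4797 to 6285, with 3 of 5 called higher, Pdgfra (1.45), Ly6a (3.54) and Thy1 (0.86). The part of these shifts in the results on the lipogenesis genes was not tested.

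Within the ML-792 libraries all 9 genes rose from day −2 to day 7 (34.9% of entries were called). The log2 fold changes were 0.67 ± 0.18 for Acly (adjusted p = 0.0034), 1.55 ± 0.29 for Acaca, 1.99 ± 0.32 for Slc25a1, 2.10 ± 0.27 for Acacb, 2.11 ± 0.19 for Me1, 2.47 ± 0.27 for Fasn, 2.51 ± 0.20 for Srebf1, 4.83 ± 1.00 for Mlxipl and 8.21 ± 0.62 for Thrsp. The call of Acly was lost without replicate A or C (adjusted p = 0.13 and 0.017), that of Acaca without A (0.019) and that of Mlxipl without B (0.011). The combined share of the 9 genes in a library was 0.0722 to 0.0831% at day −2 and 0.295 to 0.377% at day 7, and the latter lay below all DMSO libraries of day 7. Fasn and Thrsp carried 58.1 to 61.9% of the summed counts at day 7, and the other 7 genes summed to 15064 to 20498, which overlapped with DMSO. Among these 7, the means of Srebf1, Acly, Me1 and Acacb were above those in DMSO. The difference between the changes in ML-792 and in DMSO was called for 0 of the 9 genes (3.2% of entries). DESeq2 also called 0, and 4 members had an unadjusted p under 0.05. They were Srebf1 (0.75 ± 0.27, adjusted p = 0.19), Mlxipl (−4.14 ± 1.97, adjusted p = 0.42), Fasn (−0.76 ± 0.36, adjusted p = 0.39) and Thrsp (−1.78 ± 0.74, adjusted p = 0.31). Reads of Mlxipl at day −2 were 0 in all DMSO libraries and 2, 0 and 0 with ML-792. The size of its difference, and of its rise within ML-792, is therefore not reliable. Without replicate B, Thrsp passed (−2.60), and a block on the letter gave 3 calls, Srebf1 (0.76, adjusted p = 0.051), Slc25a1 (−0.98, adjusted p = 0.082) and Fasn (−0.83, adjusted p = 0.020). The comparisons of days and of treatments share the libraries of day 7 and day −2 and are not independent of each other.

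Labeled reads stand for RNA made during the 45 min pulse, plus a background of other conversions. Taken as percentile 1 of the labeled shares of entries with at least 1000 reads, this background was 0.118 to 0.332% at day −2. At the later days it was at most 0.0974%. Labeled counts were scaled with the factors of the total reads, which leaves in the values any fall of labeling in a library as a whole. Over the 10589 tested entries the median log2 change from day −2 was −1.23 to day 1, −1.65 to day 3 and −1.51 to day 7. Scaled by their own library sizes, these medians were −0.23, −0.45 and −0.39. At day 1, 1 of 7 tested genes was called, Fasn, which was lower (18.5% of entries were called). At day 3 it was 2, Thrsp higher and Acly lower (32.6%), and at day 7 it was 1, Thrsp (29.4%).

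Labeled Fasn gave 157, 44.1 and 139 normalized counts at day −2 (196, 50 and 160 reads), 6.55, 35.1 and 50.5 at day 1, 151, 125 and 182 at day 3 and 166, 103 and 150.1 at day 7. Replicate B of day −2 was low and lay within the range of day 1, so those days overlapped, as did day −2 with days 3 and 7. The log2 fold change was −1.88 ± 0.46 from day −2 to day 1 (adjusted p = 0.0018, and 0.18 without replicate A) and 2.30 ± 0.47 from day 1 to day 3, where the groups did not overlap (adjusted p = 0.00072). From day −2 to day 7 it was 0.30 ± 0.44 (adjusted p = 0.57, 95% interval −0.55 to 1.15), while total Fasn rose by 3.23. With labeled counts scaled by their own library sizes, the change was −0.84 at day 1 (adjusted p = 0.20), 1.68 at day 3 (adjusted p = 0.0013) and reached 1.48 by day 7 (adjusted p = 0.0048), so that the fall at day 1 was no longer called and rises at days 3 and 7 were.

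Labeled Thrsp had 0 reads in all 3 DMSO libraries of day −2, 0, 0 and 1 at day 1, 7, 11 and 12 at day 3 and 30, 110 and 36 at day 7. The groups were in order from day 1 on, without overlap between days 1, 3 and 7. Against a floor of 3 reads in each library of day −2, labeled Thrsp was at least 4.60-fold higher at day 3 (edgeR adjusted p = 2.2e-05) and at least 24.7-fold higher at day 7 (adjusted p = 2.1e-09), or 14.9-fold without replicate B. From day 1 to day 3 it rose by 4.82 ± 1.01 (adjusted p = 0.00089), which with Fasn made 2 calls of 7 for that step (3.03% of entries). Leaving out any 1 replicate took the call from Thrsp (adjusted p = 0.0104 to 0.0168), and leaving out A or B took it from Fasn (adjusted p = 0.0495 and 0.0116).

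Labeled Acly gave 31.2, 24.7 and 44.4 normalized counts at day −2 and 8.82, 3.53 and 8.51 at day 3. The groups did not overlap, and the log2 fold change was −2.24 ± 0.61 (adjusted p = 0.0026), against the median of −1.65 over all entries. With the labeled counts' own library sizes it was −1.07 (adjusted p = 0.21), and without replicate A or C the adjusted p was 0.022 and 0.042. From day 3 to day 7, 0 of 7 genes were called in labeled reads (0.246% of entries, DESeq2 0), and Acly and Thrsp had an unadjusted p under 0.05. Labeled Srebf1 (1 to 22 reads in a library), Slc25a1 (0 to 37), Me1 (0 to 31) and Acaca (0 to 17) were not called in the reported fits of labeled reads. Without replicate B, Acaca was called lower at day 1 than at day −2 (edgeR adjusted p = 0.0079). The libraries left then had 0 and 0 labeled reads at day 1 against 11 and 12 at day −2. The size of this fall could not be measured. For Slc25a1, with 11, 1 and 27 reads at day −2 and 28, 37 and 31 at day 7, the log2 fold change was 1.66 ± 0.75 (adjusted p = 0.068), 2.81 (adjusted p = 0.0088) with the labeled counts' own library sizes and 2.18 (adjusted p = 0.0077) with the replicate letter as a block.

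In the comparisons of ML-792 with DMSO, labeled reads gave 1 call of 7 genes in all 4 days. At day −2 there were 0 (0% of entries, with 77 of 10589 at an unadjusted p under 0.05), and at day 1 there were 0 (0.822%). At either day 0 members had an unadjusted p under 0.05, and DESeq2 called 0. At day 3 Thrsp had 0, 2 and 0 labeled reads with ML-792 against 7, 11 and 12 in DMSO, a log2 difference of −3.67 ± 0.99 (edgeR adjusted p = 0.059, 0.935% of entries called). This difference did not pass without replicate A or C (adjusted p = 0.40 and 0.49). It did not pass either with the conversion background taken off (0.15) or with only the 6 libraries of the day (0.13). At day 7 there were 0 calls (0.869% of entries, DESeq2 0) and 1 member at an unadjusted p under 0.05, again Thrsp, with 23, 17 and 13 labeled reads against 30, 110 and 36 (−1.48 ± 0.63, adjusted p = 0.34). Labeled Fasn gave 112, 67.2 and 99.3 normalized counts with ML-792 at day 3, below the DMSO range of 125 to 182 (−0.72 ± 0.42, adjusted p = 0.61), and 107, 78.7 and 54.3 at day 7, which overlapped with DMSO (−0.80 ± 0.43, adjusted p = 0.50). Over all tested entries the median log2 difference in labeled reads was −0.10 at day 3 and −0.36 at day 7. With the labeled counts' own library sizes the median at day 7 was −0.098. Labeled Fasn then differed by −0.53 (edgeR adjusted p = 0.71) and labeled Thrsp by −1.25 (adjusted p = 0.48). From day −2 to day 7 within ML-792, 1 gene was called (35.1% of entries), Thrsp at least 10.2-fold higher. The difference between the changes in ML-792 and DMSO gave 0 calls in labeled reads (0.085% of entries), with 0 members at an unadjusted p under 0.05 and 0 by DESeq2.

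The labeled share of a gene's reads sets its new RNA against its pool. For Fasn it was 4.18, 1.74 and 3.30% in the DMSO libraries of day −2, 0.181, 1.34 and 1.34% at day 1, 0.522, 0.555 and 0.585% at day 3 and 0.501, 0.288 and 0.503% at day 7. At days 3 and 7 all libraries lay below all of day −2. Relative to the labeled share of the library, which also fell, the share of Fasn changed by −1.70 ± 0.31 on the log2 scale from day −2 to day 7 (adjusted p = 0.000307), the 1 call of 7 genes (5.83% of entries), and without replicate C the adjusted p was 0.15. Over the pooled reads of the 3 libraries the share was 3.27% (95% exact binomial interval 2.96 to 3.60%) at day −2 and 0.42% (0.379 to 0.464%) at day 7. Such intervals and the floors of 3 reads cover counting error only, since reads without molecular identifiers are not independent molecules.

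Thrsp, with labeled shares of 0.230, 0.337 and 0.316% at day 7, had no labeled read out of 70 at day −2, which allows a share of up to 5.13% by the exact interval. Its change could not be sized. From day 3 (0.569, 0.586 and 0.773%) all libraries of day 7 were lower, a relative change of −1.21 ± 0.43 (adjusted p = 0.40), and 0 of 7 genes were called for that step (0.17% of entries, 1 member at an unadjusted p under 0.05). Between ML-792 and DMSO at day 7, no share was called (0.0472% of entries, 0 members at an unadjusted p under 0.05). The share of Fasn was 0.416, 0.554 and 0.333% with ML-792 and that of Thrsp 0.368, 0.270 and 0.247%, and both overlapped with DMSO.

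**Figure D3:**
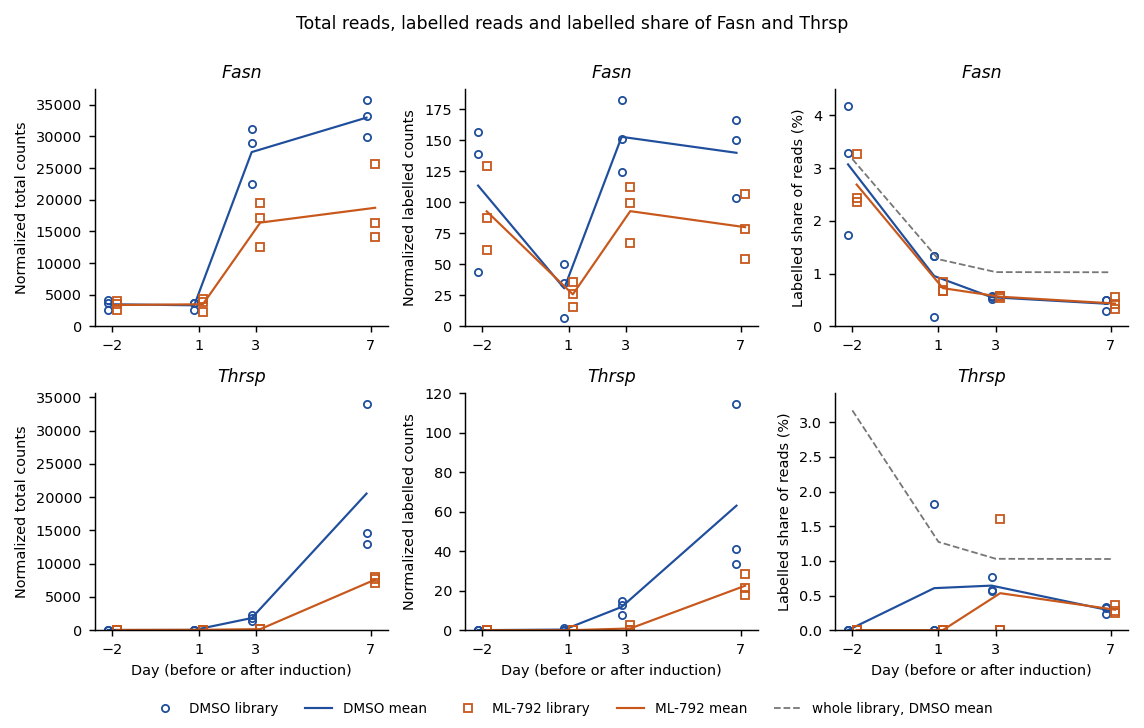
Normalized total counts, normalized labeled counts and labeled share of reads (percent) of Fasn and Thrsp by day, with single libraries as points, means of 3 as lines and the mean labeled share of the DMSO libraries dashed. Total Fasn stays high from day 3 while its labeled counts return to the range of day −2 and its labeled share is at most 0.585% in those libraries; shares of Thrsp before day 3, and with ML-792 at day 3, rest on no more than 2 labeled reads in a condition.

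The genes around the pathway were taken from 4 lists. Of 13 genes that supply citrate, acetyl-CoA and malate, all rose in DMSO from day −2 to day 7 (32.7% of all entries were called in either direction), with a median log2 fold change of 2.48 against 0.00331 over 1 entry of every tested gene. The largest rise was that of Pcx, pyruvate carboxylase, from a mean of 478 to 16519.9 normalized counts (5.11 ± 0.25, adjusted p = 4.6e-10). Of 10 genes that supply NADPH, 7 rose and 1 fell, with a median of 1.00. Taldo1 of the pentose phosphate pathway rose most (2.98 ± 0.19, adjusted p = 7.1e-09), and Me3, the mitochondrial NADP-dependent malic enzyme, went from a mean of 14.3 to no reads, at least 4.33-fold lower (adjusted p = 0.0019).

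Of 13 genes that control SREBP1 and ChREBP, 5 rose and 1 fell (median 0.24). Nr1h3 (LXRα), a nuclear receptor known to activate Srebf1, rose by 5.17 ± 0.24 (adjusted p = 2.4e-10) and Srebf2, which encodes the SREBP of cholesterol synthesis, fell by 1.23 on the log2 scale (adjusted p = 0.00081). Of 9 genes that control acetyl-CoA carboxylase and malonyl-CoA, 4 rose and none fell (median 0.84). Mlycd, which breaks malonyl-CoA down, led with 2.78 ± 0.26 (adjusted p = 3.7e-07).

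Between ML-792 and DMSO at day 7, 9.74% of all entries were called. In the supply of citrate 1 of 13 was higher, Dlat of the pyruvate dehydrogenase complex (0.47 ± 0.16, adjusted p = 0.080), and in the supply of NADPH 1 of 10, Idh1, the cytosolic isocitrate dehydrogenase (0.90 ± 0.29, adjusted p = 0.070). Of the genes that control SREBP1 and ChREBP, 2 of 13 were lower, Insig2, which helps to hold SREBPs in the endoplasmic reticulum, from a mean of 1901 in DMSO to 816 (−1.22 ± 0.19, adjusted p = 0.00011), and Mlxip (−0.42 ± 0.15, adjusted p = 0.091). Of the genes that control acetyl-CoA carboxylase, 2 of 9 were lower, Mid1ip1, a paralog of Thrsp that promotes polymerization of the carboxylase, from 1437 to 645 (−1.16 ± 0.19, adjusted p = 0.00021), and Prkab2, a subunit of AMP-activated kinase (−0.49 ± 0.16, adjusted p = 0.069). Mlxip and Prkab2 were named after their values were seen. Insig2 and Mid1ip1 were also lower at day 3, by −1.13 ± 0.19 (adjusted p = 0.00018) and −0.70 ± 0.19 (adjusted p = 0.016).

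**Figure D4:**
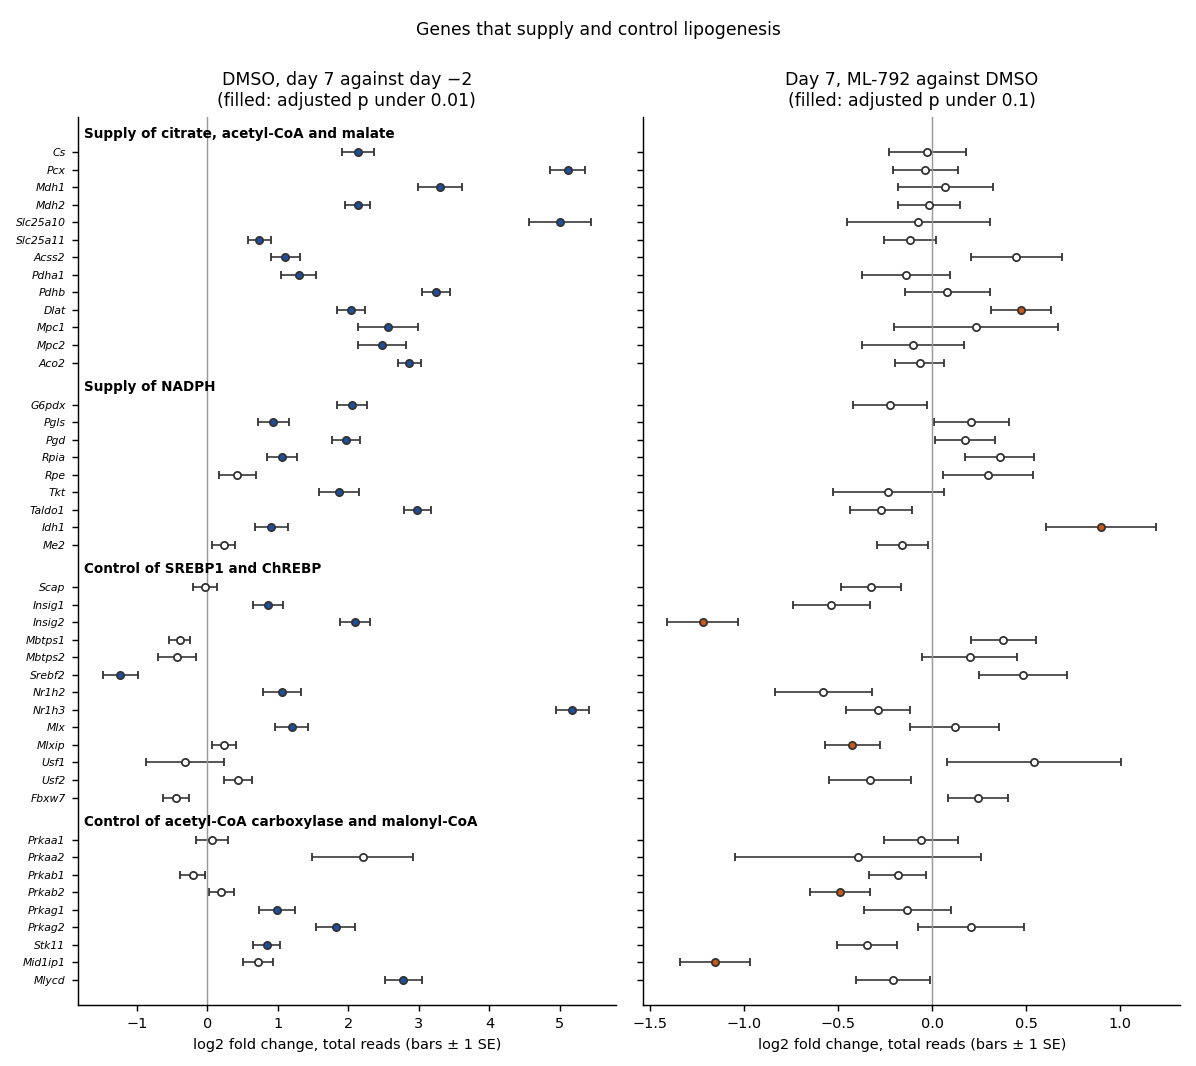
Log2 fold changes of total counts for the genes of the 4 lists, in DMSO from day −2 to day 7 (left) and between ML-792 and DMSO at day 7 (right), with bars of 1 SE and filled points for calls (adjusted p under 0.01 left and under 0.1 right). All 13 genes of citrate, acetyl-CoA and malate supply lie right of 0 on the left, and Insig2 and Mid1ip1 lie farthest left on the right; Me3, with no reads in DMSO at day 7, is not drawn.

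The members followed 1 common profile to different degrees. Over the 8 condition means of log2 counts, Pearson's r with the mean of the 9 z-scored profiles was 0.914 to 0.985 for 7 of the genes, 0.747 for Acly and 0.656 for Srebf1. Each gene is part of that mean, and the conditions share the course of differentiation. Among 13322 other genes, Tlcd1 (r = 0.997), Rb1 (0.997), Ndufs8 (0.995), Adhfe1 (0.994) and Adck3 (0.994) had the profiles most like it. Adck3, for example, had mean normalized counts of 30.1, 26.6, 346 and 1939.8 in DMSO at days −2, 1, 3 and 7 and of 37.6, 32.9, 271 and 1173 with ML-792.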

How the data were processed

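3T3-L1 cells were profiled by QuantSeq and SLAMseq in 24 libraries, 3 biological replicates of DMSO and ML-792 at days −2, 1, 3 and 7. The deposited values are raw counts that the authors made with SlamDunk on mm10, per RefSeq 3′UTR entry, for all reads and for reads with at least 1 T-to-C conversion. The submitters' processing notes name bcl2fastq 2.17.1.14. Each of the tables has 6 further columns that match no sample, and these were not used. Libraries held 13554718 to 27013352 total and 115709 to 820046 labeled reads, so that labeled values of single genes often rest on few reads. Oligo-dT priming restricts the counts to 3′ ends, so other ends of a transcript are not measured.

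Counts were tested with edgeR 4.0.16 (limma 3.58.1, R 4.3.3), using robust quasi-likelihood fits, TMM factors and filterByExpr (minimum count 10, minimum total 15), which left 26563 entries for total and 10589 for labeled reads. Labeled counts took the effective library sizes of the total reads. Days were compared within the 12 DMSO libraries at an adjusted p under 0.01, treatments within all 24 at an adjusted p under 0.1, with Benjamini-Hochberg adjustment over all entries. The change from day −2 to day 7 within ML-792 used 0.01. Shares were tested on labeled against unlabeled counts with the library as a term and own library sizes. SE is the log2 fold change divided by the square root of the F statistic, and 95% intervals of shares are Clopper-Pearson. Normalized counts put every library at the mean effective size. A group at 0 was set to a floor of 3 reads per library. Figures were drawn with matplotlib 3.10.9.

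The members, lists and motifs were chosen with earlier results of these data known. Named were all members, the called gene with the largest rise and fall of each list at day 7 (against day −2 and between treatments), the 5 genes with the most similar profile, and cell type markers. Replicate letters were checked for pairing by the correlation of deviations from group means. Every same-letter pair was over 0.1 in 7 of 10 comparisons of total reads and in 0 of 10 of labeled reads (mean 0.19 for same letters, −0.09 for others). Alternatives were DESeq2 1.42.0, other filters, 1 entry per gene, a replicate block, other sets of libraries, own scaling of labeled counts, a conversion background, and leaving out each replicate. Simulated data were first used for day 7 against day −2 in DMSO, in total reads, labeled reads and shares. ML-792 against DMSO at day 7 was simulated too, in total and labeled reads. The simulations had a fixed spread and no effect of the replicate letter. The difference in change, the replicate block and DESeq2 were not simulated.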

Additional observations from a re-analysis of the deposited data

How the results depend on the processing

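Of 479 alternative values of called changes, 421 kept the call, 58 lost it and all kept their direction, and 35 changes were gained. Of 231 alternative counts of called genes, 198 stayed within 1.5 times of the reported count and 33 did not. DESeq2 gave no adjusted p for 10 labeled values. Without a filter on low counts, ML-792 against DMSO at day 1 gave 1 call (Thrsp, adjusted p = 0.054) and the difference in change to day 7 gave 1 (Thrsp). With the replicate letter as a block, total reads gave 4 calls at day 1 against day −2, 5 for ML-792 at day 7 (Mlxipl and Slc25a1 added) and 3 for the difference in change to day 7 (Srebf1, Slc25a1 and Fasn), and labeled reads gave 2 at day 7 against day −2 (Slc25a1 added). Fitting only the 6 libraries of a day gave 0 labeled calls for ML-792 at day 3 and 1 at day 7 (Thrsp). Labeled counts scaled by their own library sizes gave 0 calls at day 1 and 3 at day 7 against day −2. With the conversion background taken off, ML-792 at day 3 gave 0 labeled calls. With both read types scaled by the total counts, the share at day 7 against day −2 gave 3 calls, and Acly went from 0.07 to −1.08. The cause of these shifts was not tested.

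Leaving out 1 replicate at a time, calls in total reads ranged from 0 to 4 at day 1 and from 3 to 5 at day 3 against day −2, from 1 to 4 at day 7 against day 3, from 2 to 5 and from 0 to 4 for ML-792 at days 3 and 7, and from 0 to 1 for the difference in change to day 7. Calls in labeled reads ranged from 0 to 3 at day 1 and from 1 to 2 at day 3 against day −2, from 0 to 1 at day 3 against day 1 and from 0 to 1 for ML-792 at day 3. The call of the share at day 7 against day −2 ranged from 0 to 1. Labeled reads limit all statements on new RNA, since every one of the 7 tested genes except Fasn had a library with at most 2 labeled reads.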
